A study of Mus musculus with 18 samples.

Results

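The cultures labelled Tun 45min are NIH3T3 cells treated with tunicamycin for 45 min, and they were compared with the untreated cultures labelled control 0min. They were chosen by their labels alone, 3 libraries in each group, so 6 of the 18 mRNA-seq libraries of the series carry this comparison. NIH3T3 is an established line of mouse embryonic fibroblasts, and in every group of the series the cells also carried DD-GFP, a destabilizing domain fused to a green fluorescent protein, integrated stably and sorted for high fluorescence. The ligand Shield-1 (S1), which keeps that domain folded, stayed in the medium of control and tunicamycin cultures alike, so both groups share the transgene and its ligand and differ in the drug and in the time label. The sources used here name no vehicle-treated or mock-handled culture at 45 min, so the drug, any solvent and the handling cannot be told apart. The other libraries used here are those labelled Tun 135min, Tun 405min and HS 45min (heat shock), 3 of each, and the labels do not say whether replicates are separate cultures, so p-values measure the spread between these libraries, which may be technical.

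Tunicamycin blocks the enzyme Dpagt1, which starts the synthesis of the sugar chain that is attached to asparagine residues of newly made secretory proteins. Proteins that lack this chain fold poorly in the endoplasmic reticulum (ER), and the unfolded protein response is sensed by PERK (gene Eif2ak3), IRE1 (Ern1) and ATF6 (Atf6). PERK is one of the kinases that phosphorylate the initiation factor eIF2α, which slows most translation but favours that of the transcription factor ATF4, a branch called the integrated stress response, and IRE1 and ATF6 lead to the induction of ER chaperones and degradation factors, in part through the transcription factor XBP1.

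Of 20207 genes in the files, 12731 had at least 1 read in all 18 libraries and were tested. At an adjusted p under 0.05, 510 genes were higher in the Tun 45min libraries (4.01% of those tested) and 276 were lower (2.17%), and for all 786 the 3 values of one group lay wholly above the 3 of the other. Groups were also apart in this way for many genes not called. Of all tested genes, 18.2% had every Tun 45min value above every control and 15.3% had every one below. Among the genes called higher the median log2 fold change was 0.97, and 238 had a log2 fold change of at least 1. Among the genes called lower the median was −0.80, and 69 had a log2 fold change of −1 or less. Over all tested genes the median log2 fold change was −0.0037. Without adjustment, 1790 genes were higher and 1469 lower at p under 0.05.

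**Figure D1:**
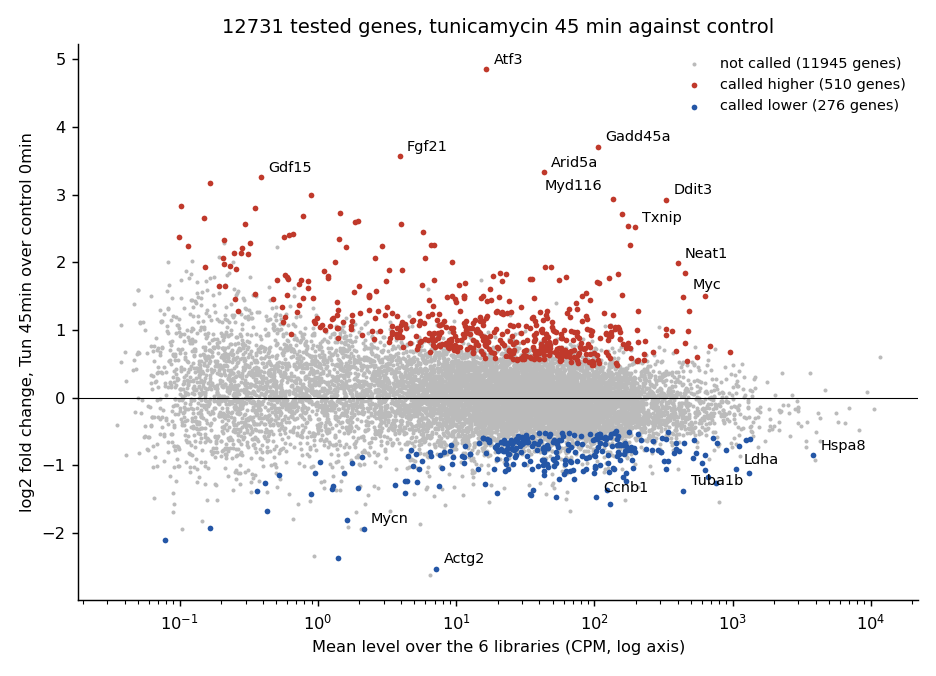
Each point is 1 of the 12731 tested genes, with its mean level over the 6 libraries in CPM (counts per 1000000 reads, log axis) across and its log2 fold change, Tun 45min over control 0min, up. Red points are the 510 genes called higher and blue points the 276 called lower. Atf3 stands highest at 4.85, and the lowest called gene is Actg2 at −2.52.

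The libraries held between 40134766 and 66478402 reads in genes. Taken as the detection floor, 3 reads correspond to between 0.0451 and 0.0747 CPM. This floor covers counting error only, while each SE comes from the edgeR fit and also holds the spread between libraries. Control replicate 1 and Tun 45min replicate 3 stood apart from their groups along the GC content of transcripts. In those libraries, genes in the upper of 3 equal groups by GC content were above genes in the lower one by 0.40 and 0.31 on the log2 scale, relative to their own group's mean, against −0.06 to −0.25 in the other 4. With an offset for GC content in each library 1005 genes were higher and 908 lower, among them 499 of the 510 and 265 of the 276. With both libraries left out, 2 per group, 2325 genes were higher and 2267 lower, and these included every one of the 510 and 276. Leaving out control replicate 1 alone gave 1391 and 1108. Leaving out any other single library cut the calls, to 166 higher and 46 lower without Tun 45min replicate 1, 55 and 3 without Tun 45min replicate 2, 195 and 69 without Tun 45min replicate 3, 84 and 18 without control replicate 2, and 79 and 17 without control replicate 3. The list counts given below with libraries left out are to be read beside these counts for all tested genes, which moved in the same fits. Median GC content was 51.5% for genes called higher, 50.8% for genes called lower and 50.3% for all tested. Scaling by total reads alone moved the median log2 fold change of all tested genes to 0.10 and the split to 876 higher and 180 lower. All 12 fibroblast markers reached 1 CPM, while none of the 7 epithelial, 7 endothelial and 5 skeletal muscle markers did and Epcam, Cldn4, Emcn, Myod1 and Myog had no read in any of the 6 libraries. Of 7 leukocyte markers 2 reached 1 CPM, and 1 of 5 did both for neuron or glia and for adipocyte markers. Emr1, Sox10, Lep and Plin had no read.

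Of 163 genes named by fixed rules, 136 were called. All of these rules but the fixed set take only called genes, so this share was largely set in advance. Among all tested genes 4.01% were called higher and 2.17% lower. The call of 32 of these held whichever 1 of the 6 libraries was left out, and the call of 15 (Atf3, Gadd45a, Fgf21, Arid5a, Myd116, Ddit3, Chac1, Trib3, Txnip, Herpud1, Myc, Ndrg1, Gm129, Nfil3 and Vegfa) held under all 17 alternatives tried. The libraries whose loss cost most calls were Tun 45min replicate 2 (104 of the 136), control replicate 3 (90) and control replicate 2 (84), and the loss of control replicate 1 cost none.

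Many regulators of the integrated stress response rose. Of 27 tested members of this list, 13 were called higher and none lower, against 4.01% and 2.17% of all tested genes, and the median log2 fold change of the list was 0.76. Leaving out 1 library gave between 7 (without Tun 45min replicate 2) and 15 (without control replicate 1) higher, with 9 without either other control, and leaving out both libraries that stood apart gave 16. Of all 12731 tested genes, 55 were higher without Tun 45min replicate 2, 1391 without control replicate 1 and 2325 without both that stood apart.

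The largest change of all was that of Atf3, a stress-induced transcription factor of the ATF/CREB family encoded on chromosome 1 at 192994176–193007212 of mm9. Its level was 1.32, 1.07 and 0.933 CPM in the 3 control libraries and 29.3, 31.5 and 35.1 CPM in the 3 Tun 45min libraries, a log2 fold change of 4.85 ± 0.20 (SE, adjusted p = 8.81e-05). The gene was close to silent in every control, and the lowest treated library was far above the highest control. Ddit3 (chromosome 10, 126727849–126733344), which encodes the pro-apoptotic transcription factor CHOP, went from 79.4, 74.2 and 77.5 CPM to 458, 567 and 729.7 CPM, a log2 fold change of 2.93 ± 0.19 (SE, adjusted p = 0.000836). The controls lay within a few CPM of each other, and the treated libraries were spread more widely but far above them.

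Ppp1r15a, listed in the files under its older symbol Myd116 (chromosome 7, 52778290–52781583), encodes GADD34, the phosphatase subunit that reverses eIF2α phosphorylation. It read 32.1, 30.5 and 31.8 CPM in controls and 226, 227 and 271 CPM after tunicamycin, a log2 fold change of 2.94 ± 0.13 (SE, adjusted p = 8.81e-05). Trib3, a pseudokinase that binds ATF4 and AKT, read 56.9, 44.3 and 52.8 CPM and 253, 288 and 351 CPM, a log2 fold change of 2.53 ± 0.17 (SE, adjusted p = 0.000999). Chac1, a glutathione-degrading enzyme, read 54.7, 33.3 and 37.7 CPM and 265, 255 and 301 CPM, a log2 fold change of 2.71 ± 0.21 (SE, adjusted p = 0.00122). Each of the 3 was separated from control by a wide gap, with no treated library near the highest control.

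Atf4 itself, the transcription factor at the head of this branch, is known to be controlled largely by translation, and its mRNA moved less than those above. It read 508, 523 and 513 CPM in controls and 886, 829 and 899 CPM in Tun 45min, a log2 fold change of 0.76 ± 0.12 (SE, adjusted p = 0.0144). The groups did not overlap, but the call was lost when any library but control replicate 1 or Tun 45min replicate 3 was left out. Sesn2, a sestrin that restrains mTORC1, rose by a log2 fold change of 1.55 ± 0.16 (SE, adjusted p = 0.00366). Ddit4, another brake on mTORC1, rose by 0.97 ± 0.14 (SE, adjusted p = 0.0121), a call lost without control replicate 2, control replicate 3 or Tun 45min replicate 2. Among the kinases that phosphorylate eIF2α, Eif2ak3 (PERK) read 29.7, 29.3 and 32.6 CPM and 28.9, 31.2 and 33.6 CPM, with overlapping groups and a log2 fold change of 0.03 ± 0.13 (SE, adjusted p = 0.903).

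**Figure D2:**
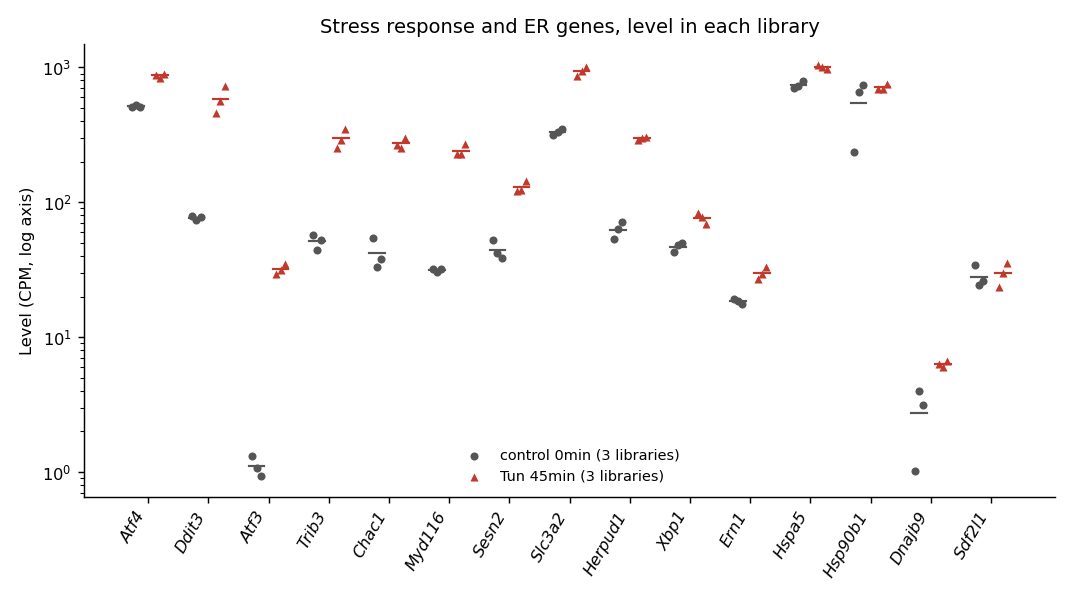
Level of 15 stress response and ER genes in each library (CPM, log axis). Grey circles are the 3 control 0min libraries, red triangles the 3 Tun 45min libraries, and bars their means. Atf3, Ddit3, Trib3, Chac1, Myd116 and Herpud1 are far apart between groups, while Hsp90b1 and Sdf2l1 overlap.

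Short promoter sequences are shown because 5 of the 12 largest rises with a sequence hold the same element. In the RefSeq promoters of build GRCm38.p6 (250 bases before to 50 after each transcription start, 300 in all), 10016 of the tested genes had a sequence. The element TGATGNAA, the core of the C/EBP-ATF composite element that ATF4 and CHOP are known to bind, was searched on both strands, so a minus-strand match reads TTNCATCA. It was present for 278 of these genes (2.78%), for 33 of 411 genes called higher (8.03%) and for 3 of 219 called lower (1.37%). Among the genes called higher of the integrated stress response list it was present for 6 of 13. No share was taken for the members not called, so this share cannot be tied to the rise. The cyclic AMP response element TGACGTCA was found for 3.56% of all tested genes, 3.65% of those called higher and 3.20% of those called lower.

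The shares of the other motifs searched were close between the sets. AP-1 sites (TGANTCA) were present for 6.32% of all tested genes, 7.79% of those called higher and 7.31% of those called lower. E-boxes (CACGTG) were present for 11.6%, 10.9% and 11.0%, and D-boxes (TTANGTAA) for 1.88%, 1.95% and 1.83%. The ER stress response element ERSE (CCAAT, 9 bases, CCACG) was present for 20 genes (0.20%), none of them called. A match is a description of these letters in this window and not a binding site.

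The promoters below are those of the 15 largest rises that hold a TGATGNAA or TGACGTCA match, printed 5′ to 3′ on the strand of the gene with the match in capitals. They lie on GRCm38.p6, a later build than the mm9 of the files. For Atf3 (chr1:191183284-191183583, minus strand) the match starts 110 bases before the transcription start, for Fgf21 (chr7:45615441-45615740, minus strand) 139 before, for Arid5a (chr1:36307483-36307782, plus strand) 164 before, for Chac1 (chr2:119350992-119351291, plus strand) 193 before, and for Trib3 (chr2:152344011-152344310, minus strand) at base 15 after it. In Ppp1r15a (chr7:45526219-45526518, minus strand) the TGACGTCA match starts 12 bases before the start.
Atf3: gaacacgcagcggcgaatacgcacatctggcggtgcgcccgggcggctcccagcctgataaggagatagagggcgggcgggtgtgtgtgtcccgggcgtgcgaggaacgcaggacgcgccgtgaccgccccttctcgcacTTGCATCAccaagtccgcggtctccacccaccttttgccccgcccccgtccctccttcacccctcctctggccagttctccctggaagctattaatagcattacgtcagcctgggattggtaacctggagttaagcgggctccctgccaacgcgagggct
Fgf21: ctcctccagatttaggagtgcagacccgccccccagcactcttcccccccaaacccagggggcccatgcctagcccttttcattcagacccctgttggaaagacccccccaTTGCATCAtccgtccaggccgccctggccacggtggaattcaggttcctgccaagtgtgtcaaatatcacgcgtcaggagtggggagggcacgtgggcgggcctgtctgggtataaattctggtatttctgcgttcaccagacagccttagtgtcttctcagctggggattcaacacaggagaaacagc
Arid5a: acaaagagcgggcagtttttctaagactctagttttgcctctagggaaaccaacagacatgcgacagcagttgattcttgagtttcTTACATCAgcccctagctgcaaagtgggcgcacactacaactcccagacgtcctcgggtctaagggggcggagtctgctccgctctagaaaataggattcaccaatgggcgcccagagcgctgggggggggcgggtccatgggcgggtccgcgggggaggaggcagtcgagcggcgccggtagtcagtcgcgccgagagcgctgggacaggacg
Ppp1r15a: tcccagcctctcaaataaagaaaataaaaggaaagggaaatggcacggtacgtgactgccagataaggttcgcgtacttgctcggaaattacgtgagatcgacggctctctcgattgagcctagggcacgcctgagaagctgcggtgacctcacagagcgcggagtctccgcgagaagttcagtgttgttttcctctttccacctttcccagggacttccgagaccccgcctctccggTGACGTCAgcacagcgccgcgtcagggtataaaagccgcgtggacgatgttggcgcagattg
Chac1: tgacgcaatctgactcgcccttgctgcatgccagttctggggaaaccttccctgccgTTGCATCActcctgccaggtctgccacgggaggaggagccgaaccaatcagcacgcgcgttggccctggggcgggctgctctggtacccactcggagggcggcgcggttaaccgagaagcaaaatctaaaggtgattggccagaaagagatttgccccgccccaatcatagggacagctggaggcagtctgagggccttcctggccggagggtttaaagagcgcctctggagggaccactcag
Trib3: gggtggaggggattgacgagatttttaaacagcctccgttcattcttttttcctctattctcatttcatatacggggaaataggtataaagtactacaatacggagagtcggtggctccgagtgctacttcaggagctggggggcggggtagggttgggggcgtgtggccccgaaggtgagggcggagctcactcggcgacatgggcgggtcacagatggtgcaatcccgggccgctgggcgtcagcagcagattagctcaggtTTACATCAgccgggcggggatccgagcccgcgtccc

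The sequences for Atf3, Fgf21 and Chac1 hold the same 8 letters, TTGCATCA, and those for Arid5a and Trib3 hold TTACATCA. Gadd45a, Ddit3, Kcnk10, Stra6, Gata3 and Txnip, which were also among the 15 largest rises, held neither motif in this window.

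ER stress sensors and the factors downstream of them moved less. Of 17 tested members 4 were called higher (Ddit3, Atf4, Xbp1 and Ern1) and none lower, against 4.01% and 2.17% of all tested genes. Ddit3 is also counted in the integrated stress response list. The median log2 fold change was 0.06. Leaving out 1 library gave between 1 and 5 higher, the count falling to 1 without control replicate 2, control replicate 3, Tun 45min replicate 1 or Tun 45min replicate 2. Xbp1, the transcription factor whose mRNA IRE1 splices, read 43.0, 48.1 and 49.8 CPM and 83.6, 77.8 and 68.7 CPM, a log2 fold change of 0.71 ± 0.13 (SE, adjusted p = 0.0273). Ern1, which encodes IRE1, read 19.2, 18.6 and 17.6 CPM and 27.1, 29.2 and 32.9 CPM, a log2 fold change of 0.69 ± 0.14 (SE, adjusted p = 0.0311). For both genes every treated library was above every control. The calls of both are among those that the 4 libraries named above took away, and Ern1 also lost its call without Tun 45min replicate 3. The counts do not resolve spliced from unspliced Xbp1.

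The ER chaperones and folding enzymes were called at about the share of all tested genes (4.01% higher, 2.17% lower). Of 36 tested members 1 was called higher, Ero1l, an ER oxidase (log2 fold change 0.93 ± 0.19, adjusted p = 0.035, lost without any library but control replicate 1), and none lower, and the median was −0.04. Hspa5, which encodes the chief ER HSP70 chaperone BiP, read 704, 729.9 and 789 CPM and 1050.0, 1011 and 978 CPM. Its groups did not overlap, but the log2 fold change of 0.45 ± 0.12 (SE, adjusted p = 0.0709) missed the threshold. Hsp90b1, the ER HSP90, read 238, 660.1 and 747 CPM in controls, where replicate 1 was far below the others, and 695, 694 and 758 CPM in Tun 45min, with overlapping groups. Dnajb9, a BiP cochaperone, read 1.02, 3.97 and 3.17 CPM and 6.29, 6.04 and 6.71 CPM, a log2 fold change of 1.21 ± 0.41 (SE, adjusted p = 0.121), again with control replicate 1 lowest.

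In ER-associated degradation, which returns misfolded proteins to the cytosol, 2 of 32 tested members were called higher and none lower, with a median of 0.02. The share called higher is near the 4.01% of all tested genes. Herpud1, which encodes a scaffold of the ubiquitin ligase Hrd1, read 53.3, 63.5 and 70.9 CPM and 292, 299 and 306 CPM, a log2 fold change of 2.26 ± 0.14 (SE, adjusted p = 0.000774). The treated values were nearly equal and all above every control. Rhbdd1, an ER rhomboid protease, rose by 0.85 ± 0.16 (SE, adjusted p = 0.0232), a call lost without control replicate 2 or 3 or Tun 45min replicate 1 or 2.

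None of the 46 tested genes of the N-glycosylation pathway was called by edgeR in either direction (3 higher and 12 lower at an unadjusted p under 0.05, 1 and 4 by DESeq2), and their median log2 fold change was −0.27. Dpagt1, the target of the drug, read 51.5, 45.0 and 43.7 CPM and 40.7, 35.8 and 18.2 CPM, a log2 fold change of −0.56 ± 0.28 (SE, adjusted p = 0.246). Tun 45min replicate 3 was far below the other treated libraries. In ER translocation and vesicle transport 2 of 57 tested members were called lower, against 2.17% of all tested genes, and none higher. Their median log2 fold change was −0.295, and 11 of the 57 were above 0. At an unadjusted p under 0.05, 1 was higher and 16 lower, against 1790 and 1469 of all 12731 tested genes. By DESeq2 0 were higher and 7 lower, against 972 and 871 of all. Without control replicate 1, edgeR called 12 lower. Sec61b, a subunit of the ER protein channel, had a log2 fold change of −0.92 ± 0.14 (SE, adjusted p = 0.0127). Spcs3, a signal peptidase subunit, had one of −0.80 ± 0.12 (SE, adjusted p = 0.0119). Both calls were lost without control replicate 2, control replicate 3, Tun 45min replicate 1 or Tun 45min replicate 2.

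Among amino acid transporters 3 of 23 tested members were called higher and 1 lower, against 4.01% and 2.17% of all tested genes. Slc3a2, the heavy chain shared by several amino acid exchangers, read 315, 333 and 348 CPM and 864, 947 and 1013 CPM, a log2 fold change of 1.503 ± 0.13 (SE, adjusted p = 0.00177). The neutral amino acid transporter Slc1a4 rose by 1.06 ± 0.14 (SE, adjusted p = 0.0096) and the cationic transporter Slc7a1 by 1.02 ± 0.14 (SE, adjusted p = 0.0096); both calls were lost without control replicate 2, control replicate 3 or Tun 45min replicate 2. In amino acid synthesis 1 of 24 tested members was called higher, near the 4.01% of all tested genes (Gpt2, an alanine transaminase, 1.04 ± 0.13, adjusted p = 0.00817). Of the same 24, 2 were called lower, against 2.17% of all tested genes, among them Glul, which makes glutamine. The call of Gpt2 was lost without control replicate 2, control replicate 3 or Tun 45min replicate 2, and that of Glul without any library but control replicate 1. Asns, asparagine synthetase and a well known ATF4 target, read 182, 310.2 and 296 CPM and 295, 213 and 171 CPM, with overlapping groups and an adjusted p of 0.647. None of the 20 cytosolic aminoacyl-tRNA synthetases, which charge tRNAs, was called by edgeR (4 higher and 1 lower at an unadjusted p under 0.05, 2 and 0 by DESeq2), and their median was 0.04.

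Secreted factors gave 6 members called higher and 2 lower of 36 tested, against 4.01% and 2.17% of all tested genes. Between 3 (without Tun 45min replicate 2) and 7 (without control replicate 1) were higher when 1 library was left out. Fgf21 (chromosome 7, 52869260–52870860), an endocrine factor of fasting and mitochondrial stress, read 0.593, 0.477 and 0.761 CPM and 7.07, 6.95 and 7.65 CPM, a log2 fold change of 3.57 ± 0.23 (SE, adjusted p = 0.000774). Adm2, a peptide of the calcitonin family, read 0.512, 0.400 and 0.491 CPM and 2.50, 2.25 and 2.33 CPM, a log2 fold change of 2.34 ± 0.21 (SE, adjusted p = 0.00208). Both were low in absolute terms in the controls but well over the detection floor, and treated libraries were tightly grouped. Gdf15, a stress-induced cytokine, had 4, 1 and 4 reads in the controls and 38, 42 and 39 reads in Tun 45min, with an adjusted p of 0.0118 that was lost without control replicate 3 or Tun 45min replicate 2.

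Vegfa, the main angiogenic growth factor, read 66.0, 65.2 and 64.8 CPM and 215, 214 and 266 CPM, a log2 fold change of 1.83 ± 0.13 (SE, adjusted p = 0.00122). Edn1, which encodes the vasoconstrictor endothelin, rose by 1.89 ± 0.27 (SE, adjusted p = 0.0117), and its call was lost without control replicate 3 or Tun 45min replicate 2. In the other direction, the growth factor Igf2 read 100.2, 68.2 and 62.3 CPM and 28.3, 27.3 and 28.3 CPM, a log2 fold change of −1.46 ± 0.19 (SE, adjusted p = 0.00958), lost without Tun 45min replicate 2. For Vegfa and Igf2 every treated library was on one side of every control.

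The Gadd45 family, small stress proteins that act in growth arrest and DNA repair, gave 3 genes called higher of 4 tested, against 4.01% of all tested genes. The median log2 fold change of the 4 was 1.26. Gadd45a (chromosome 6, 66985090–66987401) read 16.2, 13.1 and 16.0 CPM and 182, 191 and 219 CPM, a log2 fold change of 3.71 ± 0.16 (SE, adjusted p = 8.81e-05). Gadd45b rose by 1.25 ± 0.14 (SE, adjusted p = 0.00588) and Gadd45g by 1.27 ± 0.15 (SE, adjusted p = 0.00744), and both calls were lost without Tun 45min replicate 2. Among p53 targets 5 of 37 tested members were called higher and none lower, against 4.01% and 2.17% of all tested genes, with a median of −0.07. Those 5 include Gadd45a, Sesn2, Plk2 and Bbc3 (log2 fold change 1.28 ± 0.20, adjusted p = 0.0143, lost without 3 single libraries), while Cdkn1a, which encodes the cell cycle inhibitor p21, read 103, 106 and 96.6 CPM and 94.1, 87.9 and 83.9 CPM with an adjusted p of 0.325, and Mdm2 read 66.4, 85.3 and 81.1 CPM and 92.3, 84.5 and 74.0 CPM.

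Members of some transcription factor families were called higher. Of 13 tested Kruppel-like factors, zinc finger proteins of growth and differentiation, 7 were called higher and none lower, against 4.01% and 2.17% of all tested genes. The median of the list was 0.91. The count of higher calls ran from 2 (without control replicate 2, control replicate 3 or Tun 45min replicate 2) to 8, and was 3 without Tun 45min replicate 1 and 4 without Tun 45min replicate 3. Klf4 read 85.0, 85.8 and 74.8 CPM and 229, 226 and 251 CPM, a log2 fold change of 1.52 ± 0.12 (SE, adjusted p = 0.00133). Klf2 read 9.02, 9.38 and 10.3 CPM and 24.3, 25.3 and 28.6 CPM, a log2 fold change of 1.44 ± 0.15 (SE, adjusted p = 0.00356). Both held their calls whichever library was left out. Klf7 and Klf11 lost theirs without any library but control replicate 1, with log2 fold changes of 1.17 ± 0.22 (SE, adjusted p = 0.0266) and 1.13 ± 0.22 (SE, adjusted p = 0.0299).

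Circadian clock genes gave 9 called higher and none lower of 21 tested, against 4.01% and 2.17% of all tested genes. Their median was 0.39. Higher calls numbered between 3 (without Tun 45min replicate 2) and 11 (without control replicate 1) on leaving out 1 library, with 5 without control replicate 2 and 4 without control replicate 3. The called genes are repressors and output factors of the clock. Ciart, a repressor listed under the older symbol Gm129, read 2.40, 2.17 and 2.21 CPM and 10.5, 10.7 and 11.3 CPM, a log2 fold change of 2.26 ± 0.16 (SE, adjusted p = 0.00103). Nfil3, a repressor that binds D-boxes, read 17.0, 21.8 and 21.8 CPM and 80.1, 81.2 and 71.0 CPM, a log2 fold change of 1.94 ± 0.15 (SE, adjusted p = 0.00122). Cry2, a cryptochrome repressor, read 11.7, 9.50 and 9.30 CPM and 31.0, 34.1 and 42.9 CPM, a log2 fold change of 1.83 ± 0.18 (SE, adjusted p = 0.00319). For all of these the lowest treated library was well above the highest control. Per2, a period repressor, rose by 1.66 ± 0.21 (SE, adjusted p = 0.00777), and its call was lost without 2 single libraries.

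NF-kB subunits and feedback targets gave 6 higher and none lower of 22 tested, against 4.01% and 2.17% of all tested genes, with a median of 0.45. The count fell to 0 without control replicate 2, control replicate 3 or Tun 45min replicate 2, fell to 1 without Tun 45min replicate 1 or Tun 45min replicate 3, and rose to 13 without control replicate 1. The largest was Nfkbie, an inhibitor of NF-kB, at 1.11 ± 0.22 (SE, adjusted p = 0.0301). Relb, an NF-kB subunit, had 0.98 ± 0.19 (SE, adjusted p = 0.0297), and Nfkbia, the inhibitor IκBα, read 69.2, 55.2 and 55.0 CPM and 71.5, 70.9 and 73.4 CPM with an adjusted p of 0.264.

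Some immediate-early genes, which many stimuli switch on before new protein is made, were called. Of 40 tested members outside AP-1, 7 were called higher and 1 lower, against 4.01% and 2.17% of all tested genes. The median was 0.16, with between 2 and 13 higher on leaving out 1 library (2 without control replicate 2, control replicate 3 or Tun 45min replicate 2, 4 without Tun 45min replicate 1 and 13 without control replicate 1). Myc, the proliferation-driving transcription factor (chromosome 15, 61816896–61821916), read 178, 219 and 197 CPM and 719, 652 and 763 CPM, a log2 fold change of 1.85 ± 0.14 (SE, adjusted p = 0.00122). Its close relative Mycn is not in this list, where no log2 fold change lay below −0.672. Mycn read 3.39, 3.62 and 3.19 CPM and 0.653, 0.995 and 1.03 CPM, a log2 fold change of −1.93 ± 0.23 (SE, adjusted p = 0.00686), a call lost without Tun 45min replicate 2. The relatives thus moved in opposite directions, each with no overlap between groups.

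Egr1, which encodes a zinc finger factor induced by growth signals, read 192, 159.8 and 131 CPM and 149.5, 112 and 112 CPM, with overlapping groups and an adjusted p of 0.259. None of the 11 tested Fos and Jun members was called by edgeR (2 higher and 1 lower at an unadjusted p under 0.05, none by DESeq2), and their median was 0.06. Fos read 1.40, 1.09 and 1.15 CPM and 1.03, 0.937 and 1.21 CPM, and Jun read 187, 210.3 and 198 CPM and 159, 157 and 166 CPM. Of 12 MAP kinase phosphatases, which end growth factor signalling, 2 were called lower and none higher, against 2.17% and 4.01% of all tested genes. Dusp1 read 56.8, 66.8 and 57.3 CPM and 31.4, 29.9 and 30.6 CPM, a log2 fold change of −0.98 ± 0.13 (SE, adjusted p = 0.00869), and Dusp6 fell to a similar degree (−0.99 ± 0.13, adjusted p = 0.00869). Both calls were lost without control replicate 2, control replicate 3 or Tun 45min replicate 2.

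Some genes with large rises belong to none of these groups. Arid5a, an RNA-binding protein that stabilises inflammatory mRNAs (chromosome 1, 36364599–36379820), read 8.57, 7.49 and 7.22 CPM and 72.1, 78.3 and 84.1 CPM, a log2 fold change of 3.33 ± 0.15 (SE, adjusted p = 8.81e-05). Txnip, the thioredoxin-binding alpha-arrestin that lowers glucose uptake, read 70.1, 43.8 and 62.6 CPM and 359, 342 and 308 CPM, a log2 fold change of 2.52 ± 0.20 (SE, adjusted p = 0.00122). Ndrg1, a stress-responsive gene of the hypoxia list, read 55.9, 48.5 and 47.3 CPM and 159.9, 156 and 177 CPM, a log2 fold change of 1.70 ± 0.13 (SE, adjusted p = 0.00122). In each the 3 treated libraries lay close together and far above every control. The long noncoding RNA Neat1, the scaffold of nuclear paraspeckles, rose from 193, 142 and 149.8 CPM to 490.0, 643 and 797 CPM, a log2 fold change of 1.99 ± 0.22 (SE, adjusted p = 0.00491).

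The remaining genes among the 15 largest rises were low in controls. They are the cadherin Cdh3 (0.323, 0.114 and 0.172 CPM in controls and 1.37, 1.77 and 1.59 CPM in Tun 45min), the cytokine signalling inhibitor Socs2 (0.323, 0.477 and 0.319 and 2.74, 2.77 and 1.996 CPM), the potassium channel Kcnk10, the cell adhesion protein Flrt1, the retinol transporter Stra6 and the transcription factor Gata3, with log2 fold changes between 2.57 and 2.997. The calls of Flrt1 and Stra6 were each lost without 2 single libraries. Of 261 tested Zfp zinc finger genes, 32 were called higher and none lower, against 4.01% and 2.17% of all tested genes, with a median of 0.32. The count of higher calls fell to between 1 and 7 when any library but control replicate 1 was left out (72 without that one), being 1 without Tun 45min replicate 2, 2 without control replicate 2 or control replicate 3, and 7 without Tun 45min replicate 1 or Tun 45min replicate 3.

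Of the genes that lack a read in at least 1 of the 18 libraries, 102 pass edgeR's own filter on low counts for these groups. The 5 with the largest change among those called were Cabp1, Klf15, 1700013F07Rik, Gpa33 and Ptpn22. They passed that filter through their reads in Tun 45min, so their values are a description with no test. Klf15, another Kruppel-like factor, had 7, 3 and 0 reads in controls and 78, 84 and 85 in Tun 45min.

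**Figure D3:**
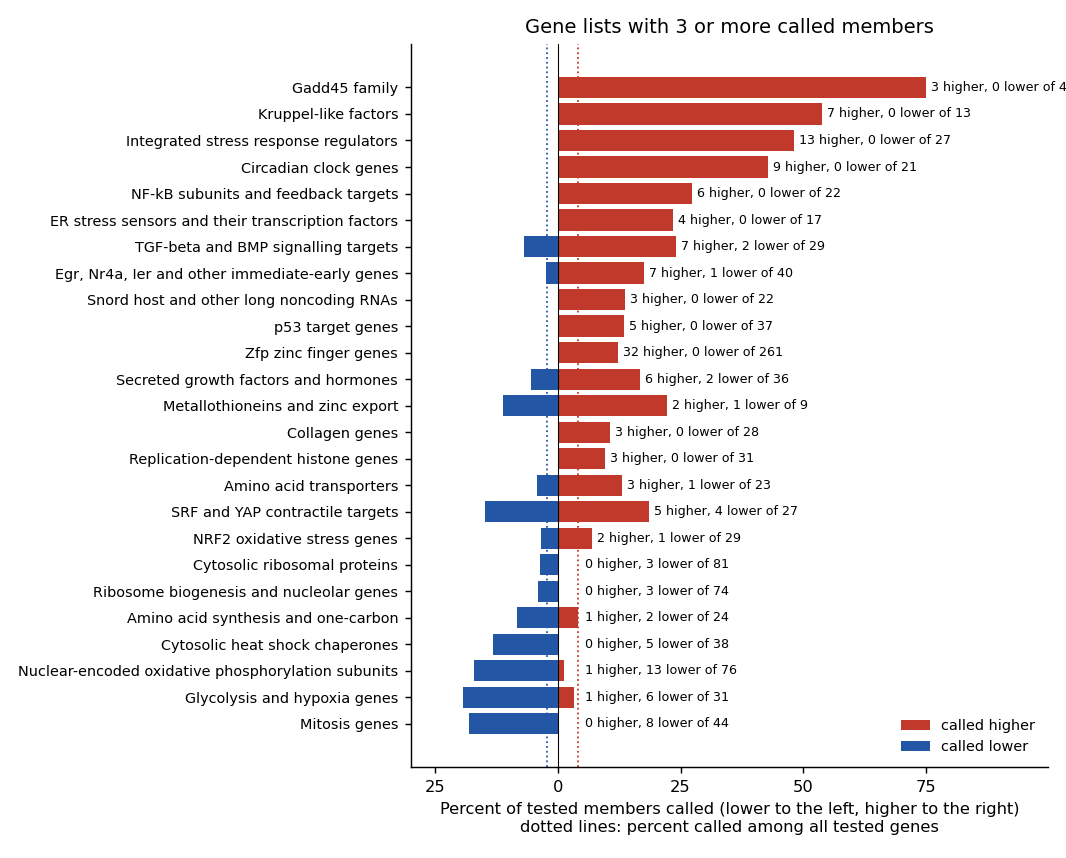
Percent of the tested members of each gene list called higher (red, right) or lower (blue, left), for the lists with 3 or more called members, with the counts beside each bar. Dotted lines mark 4.01% and 2.17%, the shares called higher and lower among all tested genes. Integrated stress response regulators (13 of 27), Kruppel-like factors (7 of 13) and circadian clock genes (9 of 21) reach furthest to the right after the Gadd45 family, which has 4 members.

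Only 65 of the 276 genes called lower belong to any list, and mitosis genes were among them. Of 44 tested mitosis genes 8 were called lower and none higher, against 2.17% and 4.01% of all tested genes, with a median of −0.52. The count of mitosis genes called lower was 1 without control replicate 2, control replicate 3 or Tun 45min replicate 2, 2 without Tun 45min replicate 1, 4 without Tun 45min replicate 3 and 34 without control replicate 1. Without control replicate 1, 1108 of all 12731 tested genes were lower. Ccnb1, which encodes cyclin B1, the driver of entry into mitosis, read 135, 152 and 165 CPM and 70.1, 58.5 and 34.8 CPM, a log2 fold change of −1.47 ± 0.25 (SE, adjusted p = 0.0202), lost without 3 single libraries. Ccnf, cyclin F, read 199, 173 and 161 CPM and 66.8, 68.1 and 72.3 CPM, a log2 fold change of −1.36 ± 0.13 (SE, adjusted p = 0.00265), and held without any 1 library. Cdc20, the activator of the anaphase-promoting complex, had a log2 fold change of −0.80 ± 0.13 (SE, adjusted p = 0.016), lost without 4 single libraries. In bulk RNA, fewer cells in mitosis and less of these RNAs per cell cannot be told apart. Among 49 DNA replication genes 2 were called lower, against 2.17% of all tested genes, and none higher, with a median of −0.26. That count was 13 without control replicate 1, 1 without Tun 45min replicate 3 and 0 without any other. At an unadjusted p under 0.05, 14 of the 49 were lower and 0 higher, and by DESeq2 8 were lower and 0 higher.

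Tubulins were grouped after their values were seen. Of 13 tested genes 5 were lower and none higher, against 2.17% and 4.01% of all tested genes. Leaving out 1 library gave between 0 (without Tun 45min replicate 2) and 7 (without control replicate 1) lower. Tuba1b (chromosome 15, 98761862–98764821), the main alpha tubulin of proliferating cells, read 768, 628 and 514 CPM and 269, 229 and 241 CPM, a log2 fold change of −1.37 ± 0.17 (SE, adjusted p = 0.00841), and the beta tubulin Tubb2c read 1290.0, 917 and 1003 CPM and 425, 449 and 469.6 CPM, a log2 fold change of −1.26 ± 0.16 (SE, adjusted p = 0.00861). Both lost their calls without Tun 45min replicate 2, and in both every treated library was under every control. Tubulin genes are near copies of each other, so reads may be split between them.

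Among cytosolic heat shock chaperones, many of them targets of HSF1, 5 of 38 tested members were called lower and none higher, with a median of −0.20. Among all tested genes 2.17% were called lower and 4.01% higher. The count of chaperones called lower was 0 without control replicate 2, control replicate 3, Tun 45min replicate 1 or Tun 45min replicate 2, 2 without Tun 45min replicate 3 and 17 without control replicate 1. Hspa8, the constitutive HSC70, read 4512, 5188 and 5076 CPM and 3072, 2878 and 2247 CPM, a log2 fold change of −0.85 ± 0.17 (SE, adjusted p = 0.0306). The stress-induced pair Hspa1b and Hspa1a, near copies whose reads may be split between them, had log2 fold changes of −1.40 ± 0.25 (SE, adjusted p = 0.0214) and −1.35 ± 0.25 (SE, adjusted p = 0.0265). Dnajb1, the HSP40 that works with them, read 61.6, 75.2 and 73.3 CPM and 40.2, 37.6 and 30.4 CPM, a log2 fold change of −0.96 ± 0.16 (SE, adjusted p = 0.0173). Hsph1, of the HSP110 family, had an adjusted p of 0.0856.

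Of 76 tested nuclear genes for subunits of oxidative phosphorylation, 13 were called lower and 1 higher, against 2.17% and 4.01% of all tested genes. The median of the 76 was −0.37. Lower calls numbered 0 without Tun 45min replicate 2, 1 without control replicate 2, control replicate 3 or Tun 45min replicate 3, 2 without Tun 45min replicate 1 and 33 without control replicate 1. Sdhd, a subunit of complex II, read 122, 105 and 113 CPM and 56.7, 54.8 and 48.2 CPM, a log2 fold change of −1.09 ± 0.13 (SE, adjusted p = 0.00681). Cox6b1, of complex IV, read 290.4, 237 and 247 CPM and 153, 114 and 111 CPM, a log2 fold change of −1.04 ± 0.17 (SE, adjusted p = 0.0158). The exception was Cox6a2, the muscle form of a complex IV subunit, which rose from 1.19, 0.858 and 0.982 CPM to 4.12, 3.97 and 4.49 CPM (2.06 ± 0.20, adjusted p = 0.00319) and held without any 1 library.

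In glycolysis and hypoxia 6 of 31 tested members were called lower and 1 higher (Ndrg1), against 2.17% and 4.01% of all tested genes. The median of the 31 was −0.31. The 6 fell to between 0 and 2 without any library but control replicate 1, which gave 9. Ldha, lactate dehydrogenase, read 1651, 1276 and 1360.0 CPM and 634, 712 and 719 CPM, a log2 fold change of −1.05 ± 0.15 (SE, adjusted p = 0.0117). Of 42 proteasome subunits 2 were called lower and none higher, with a median of −0.42, and 18 were lower without control replicate 1, 1 without Tun 45min replicate 3 and 0 without any other library. Psmb3, a beta subunit, read 233, 263 and 248 CPM and 139.9, 145 and 144 CPM, a log2 fold change of −0.80 ± 0.11 (SE, adjusted p = 0.0119), lost without those other 4 libraries. Of 81 cytosolic ribosomal proteins 3 were lower, with a median of −0.27, and 28 were lower without control replicate 1, 1 without control replicate 2 and 0 without any other. These 2 of 42 and 3 of 81 stand against 2.17% of all tested genes. At an unadjusted p under 0.05, 15 of the 42 were lower and 1 higher, and 22 of the 81 were lower and 0 higher. By DESeq2 10 and 18 were lower and 0 higher. Of all 12731 tested genes 1469 were lower unadjusted and 871 by DESeq2.

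Contractile genes and their regulators split. Of 27 tested SRF and YAP targets 5 were called higher and 4 lower, against 4.01% and 2.17% of all tested genes. Without control replicate 1 the 5 and 4 became 7 and 6, without control replicate 2 both were 2, without Tun 45min replicate 2 they were 0 and 1, and without any other library both were 1. Actg2, smooth muscle gamma actin (chromosome 6, 83462903–83486245), was the largest fall of all, from 15.4, 11.4 and 9.97 CPM to 1.85, 2.38 and 2.15 CPM, a log2 fold change of −2.52 ± 0.23 (SE, adjusted p = 0.00208). Tagln, which encodes the actin-binding transgelin, read 223, 157 and 171 CPM and 94.0, 89.5 and 83.9 CPM, a log2 fold change of −1.04 ± 0.16 (SE, adjusted p = 0.0138). The YAP target Ankrd1 went the other way, from 64.1, 99.0 and 84.8 CPM to 156, 159 and 166 CPM (0.96 ± 0.17, adjusted p = 0.0225). The calls of Tagln and Ankrd1 were lost without 4 single libraries. Of 29 TGF-beta and BMP targets 7 were called higher and 2 lower, against the same shares of all tested genes. The largest rise was that of the transcription factor Snai2 (1.74 ± 0.28, adjusted p = 0.0162). The 7 became 0 without Tun 45min replicate 2, 1 without control replicate 3 and 2 without control replicate 2, and the call of Snai2 was lost in each case. The 2 lower calls were lost without any library but control replicate 1.

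**Figure D4:**
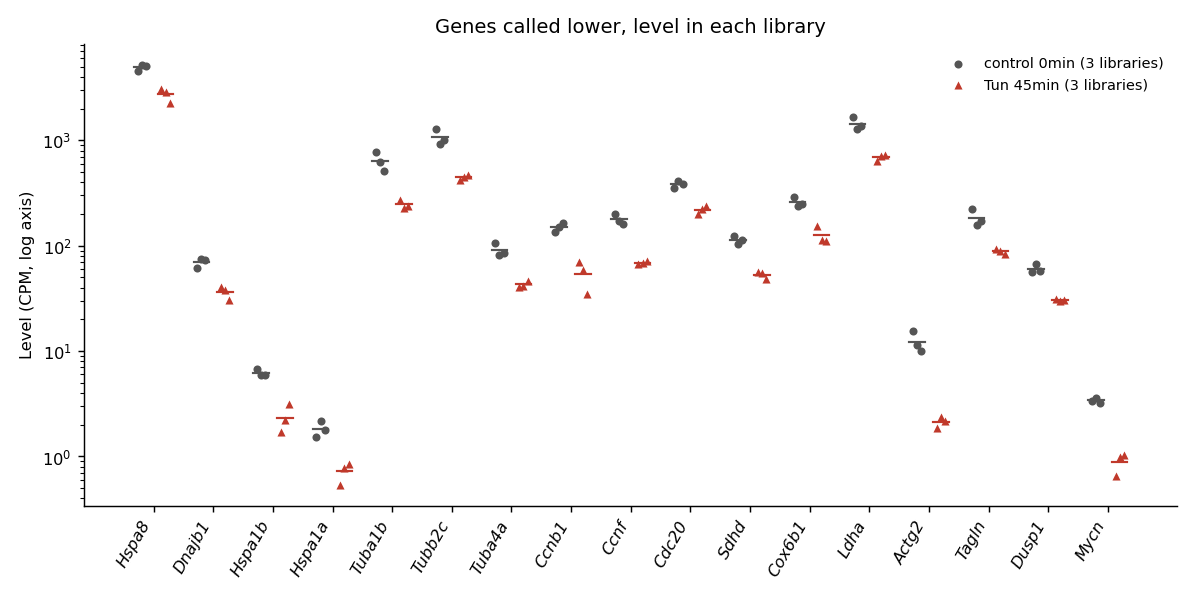
Level of 17 genes called lower in each library (CPM, log axis). Grey circles are the 3 control 0min libraries, red triangles the 3 Tun 45min libraries, and bars their means. No gene shown has overlapping groups, and Actg2 falls furthest, from 9.96 CPM or more to 2.38 CPM or less.

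The 15 largest falls also included Vip (−2.37 ± 0.33, adjusted p = 0.0106) and Tmeff2 (−1.81 ± 0.26, adjusted p = 0.0119), whose calls were lost without 4 and 2 single libraries. Others among them were the tetraspan protein Tm4sf1, 193, 197 and 195 CPM in controls and 74.0, 76.2 and 46.4 CPM in Tun 45min (−1.57 ± 0.20, adjusted p = 0.00823), the hyaluronidase Hyal2 (−1.43 ± 0.22, adjusted p = 0.0147), the zinc importer Slc39a10 (−1.42 ± 0.24, adjusted p = 0.0204) and the surface protein Cd24a (−1.36 ± 0.20, adjusted p = 0.0121). Tm4sf1 held without any 1 library, and Hyal2, Slc39a10 and Cd24a were each lost without 3. Of 28 tested collagen genes, 3 were called higher and none lower, against 4.01% and 2.17% of all tested genes. The 3 became 0 without control replicate 2, control replicate 3 or Tun 45min replicate 2, 1 without Tun 45min replicate 3 and 5 without control replicate 1. Housekeeping genes were unsteady among replicates: Gapdh read 593, 1545 and 1077 CPM and 1573, 1234 and 1185 CPM, and Actb read 8029, 4052 and 3598 CPM and 2625, 3201 and 4238 CPM, with overlapping groups for both.

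The remaining lists had few calls, to be read beside the 4.01% called higher and 2.17% called lower among all tested genes. In the autophagy list 2 of 38 members were higher, near the 4.01% of all tested genes, among them the receptor Sqstm1 (0.68 ± 0.15, adjusted p = 0.0418, also counted with the NRF2 genes, where 2 of 29 were higher and 1 lower). Without any library but control replicate 1 the call of Sqstm1 was lost and these counts were 0. Hmox1, the heme oxygenase of that list, read 101, 130.3 and 112 CPM and 150.0, 159.6 and 168 CPM, not called at an adjusted p of 0.0789. Of 9 metallothionein and zinc export genes 2 were higher, the exporter Slc30a1 (1.26 ± 0.14, adjusted p = 0.00564, lost without Tun 45min replicate 2) and Mt2, and 1 lower, and the calls of Mt2 and of the lower gene were lost without any library but control replicate 1. Of 12 chemokines and cytokines 2 were higher, Cxcl10 and Lif, both lost without control replicate 2, control replicate 3 or Tun 45min replicate 2, while Ccl2 read 118, 49.3 and 46.7 CPM and 105, 78.1 and 81.4 CPM with overlapping groups. No member was called by edgeR among 42 SR proteins and hnRNPs, 20 ubiquitin genes and p97 partners and 9 TRiC chaperonin subunits. At an unadjusted p under 0.05 these had 1 higher and 4 lower, 1 higher and 4 lower, and 0 higher and 2 lower, and by DESeq2 1, 2 and 1 lower with none higher.

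Tested directly, the Tun 45min libraries differed in few genes from those at 135 min. At 135 min 15 genes were higher (0.118% of those tested) and 22 lower (0.173%). These calls were fragile: edgeR called 107 and 111 without Tun 135min replicate 1, 1 and 0 without Tun 45min replicate 1, and none without Tun 45min replicate 2, Tun 45min replicate 3, Tun 135min replicate 2 or Tun 135min replicate 3, while 1029 were higher and 979 lower at an unadjusted p under 0.05 and DESeq2 called 328 and 294. Several genes with large rises at 45 min were lower again at 135 min. The log2 fold change, 135 min over 45 min, was −2.66 ± 0.19 (SE, adjusted p = 0.0062) for Atf3, −2.39 ± 0.23 (SE, adjusted p = 0.0159) for Fgf21 and −1.996 ± 0.16 (SE, adjusted p = 0.00995) for Gadd45a. Herpud1 (−1.45 ± 0.17, adjusted p = 0.0368) and Myd116 (−1.25 ± 0.17, adjusted p = 0.047) were lower as well. Egr1 and Fos, not called at 45 min, were higher at 135 min, by 2.55 ± 0.16 (SE, adjusted p = 0.0062) and 2.35 ± 0.26 (SE, adjusted p = 0.0299). Mycn, which had fallen at 45 min, was higher by 2.15 ± 0.28 (SE, adjusted p = 0.046).

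From 45 to 405 min of tunicamycin 3110 genes were higher (24.4% of those tested) and 3574 lower (28.1%), or 2285 and 4497 when scaled by total reads alone. The ER chaperones, of which 1 of 36 was called at 45 min, had 30 of 36 higher at 405 min than at 45 min and none lower, with a median log2 difference of 1.44. Hspa5 was higher at 405 min by 3.22 ± 0.12 (SE, adjusted p = 1.49e-06), Sdf2l1 by 4.95 ± 0.18 (SE, adjusted p = 1.49e-06) and Dnajb9 by 3.23 ± 0.14 (SE, adjusted p = 2.05e-06). N-glycosylation genes, with none called at 45 min, had 30 of 46 higher and none lower at 405 min, and ER-associated degradation 24 of 32. Atf3 was also above its 45 min level, by 1.61 ± 0.10 (SE, adjusted p = 1.07e-05), and Ddit3 by 2.24 ± 0.19 (SE, adjusted p = 4.19e-05). Myc, Klf4 and Sesn2 differed less, with log2 differences of 0.36, 0.03 and −0.19 between 405 and 45 min. Both comparisons share the Tun 45min libraries with the comparison to control.

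Heat shock for the same 45 min was also set directly against tunicamycin. HS 45min libraries had 8 genes higher than Tun 45min (0.0628% of those tested) and 18 lower (0.141%), and without HS 45min replicate 3 these counts were 3416 and 3671. Without any other 1 of the 6 libraries edgeR called none (1832 were higher and 1225 lower at an unadjusted p under 0.05 with all 6, and DESeq2 called 748 and 379). Hspa1b was higher in heat shock by 6.41 ± 0.77 (SE, adjusted p = 0.0455), Dnajb1 by 2.62 ± 0.17 (SE, adjusted p = 0.0207) and Dusp1 by 2.54 ± 0.28 (SE, adjusted p = 0.0455). Gadd45a was lower in heat shock than in tunicamycin, with a log2 fold change of −2.66 ± 0.19 (SE, adjusted p = 0.0207), as were Arid5a (−2.50 ± 0.27, adjusted p = 0.0455) and Nfil3 (−2.02 ± 0.22, adjusted p = 0.0455). For Atf3 and Ddit3 the differences of −2.13 ± 0.35 (SE, adjusted p = 0.0774) and −1.52 ± 0.27 (SE, adjusted p = 0.0818) missed the threshold.

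**Figure D5:**
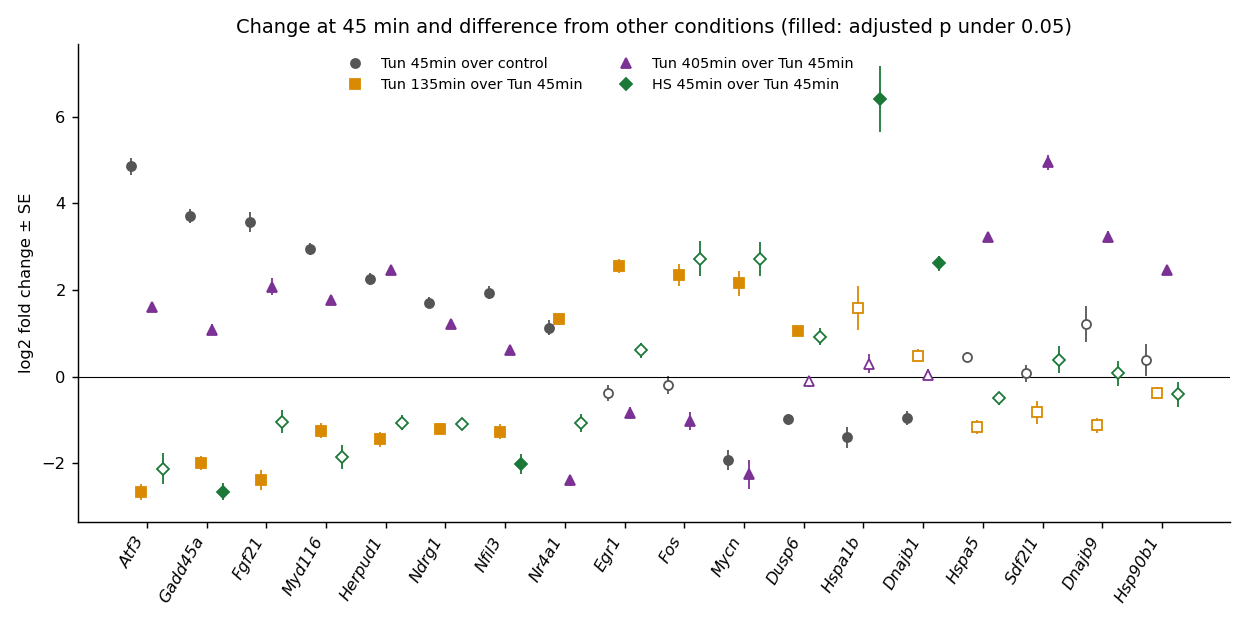
Log2 fold changes with their standard errors for 18 genes in 4 comparisons: Tun 45min over control (grey circles), Tun 135min over Tun 45min (orange squares), Tun 405min over Tun 45min (purple triangles) and HS 45min over Tun 45min (green diamonds). Filled points have an adjusted p under 0.05. Atf3, Gadd45a and Fgf21 are above 0 at 45 min and lower at 135 min, while Hspa5, Sdf2l1, Dnajb9 and Hsp90b1 rise between 45 and 405 min.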

How the data were processed

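RNA of NIH3T3 cells was extracted with RNeasy kits and sequenced as poly(A) mRNA-seq libraries. The methods name 2 library kits without saying which library used which. The authors aligned reads to mouse build mm9 (per the labels) and analysed them against RefSeq on the DNAnexus platform; aligner and versions are not given in the sources used here. The estimated counts of reads per gene are used as the authors deposited them, together with gene coordinates, which differ between files for 741 of 20207 genes (those of control replicate 1 are given). RPKM values, deposited by the authors beside the counts, were not used. In each library 17.7% to 23.2% of values under 1000 reads were not whole, so counts were rounded.

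Genes with at least 1 read in all 18 libraries (12731) were tested with edgeR 4.0.16 in R 4.3.3 (TMM factors within the libraries compared, quasi-likelihood test). A gene with a Benjamini-Hochberg adjusted p under 0.05 was called. Levels are TMM-scaled CPM, computed here and not per length. SE is the size of the log2 fold change divided by the square root of F. Scripts were tested on simulated data. Promoters came from RefSeq (GRCm38.p6) and were matched by symbol for 10016 tested genes. No 2 replicates agreed within sampling noise (chi-square per degree of freedom 16.4 to 284). The labels do not say whether replicates are separate cultures, so p-values measure the spread between these samples, which may be technical.

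Alternatives were DESeq2 1.42.0 (size factors, Wald test), total-read scaling, other filters, edgeR's exact test, all groups in 1 fit, a replicate block, a GC offset (lowess span 0.3, for the 98.2% of genes with a GC value), a fold change minimum and leaving out libraries.

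The members and lists were chosen with earlier results of these data known. Named genes are the 15 largest called rises and the 15 largest called falls whose groups were apart and whose higher group averaged at least 50 reads, up to 4 called members of each list, a fixed set of stress and reference genes whatever their values, and the 5 largest called changes outside the filter. The tubulin list, the alternatives for single genes in the direct comparisons and the fit with 2 libraries per group were added after the data were seen. Some list members are not reported here by name.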

Additional observations from a re-analysis of the deposited data

Results flagged for a closer look

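These differences between conditions were tested directly, as the log2 fold change of the other condition over Tun 45min in edgeR, and each passed an adjusted p under 0.05. At 135 min of tunicamycin the genes lower than at 45 min were Atf3 (−2.66), Gadd45a (−1.996), Fgf21 (−2.39), Cdh3 (−2.87), Myd116 (−1.25), Flrt1 (−2.22), Herpud1 (−1.45), Gpt2 (−0.87), Slc1a4 (−0.83), Ndrg1 (−1.20) and Nfil3 (−1.27), with adjusted p between 0.0062 and 0.048. Those higher at 135 min were Mycn (2.15), Nr4a1 (1.34), Dusp6 (1.06), Fos (2.35) and Egr1 (2.55), with adjusted p between 0.0062 and 0.046.

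In heat shock for the same time the genes lower than in tunicamycin were Gadd45a (−2.66), Arid5a (−2.50), Cdh3 (−2.65), Socs2 (−2.37), Flrt1 (−2.10), Slc1a4 (−1.34), Plk2 (−1.83), Klf11 (−1.95), Gm129 (−1.92) and Nfil3 (−2.02), and those higher were Igf2 (1.68), Hspa1b (6.41), Dusp1 (2.54), Hspa1a (6.28) and Dnajb1 (2.62), with adjusted p between 0.0207 and 0.0455.

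Most of the 163 named genes were chosen through their change in the same Tun 45min libraries. At 405 min of tunicamycin 64 of the 163 were higher than at 45 min and 45 lower, against 24.4% and 28.1% of all tested genes. The report gives the values of 6 of those that were higher, Hspa5 (3.22), Sdf2l1 (4.95), Dnajb9 (3.23), Atf3 (1.61), Ddit3 (2.24) and Myc (0.36), with adjusted p between 1.49e-06 and 0.023.

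Each comparison shares the 3 Tun 45min libraries. Groups of 3 libraries were not screened for single outlying values.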

How the results depend on the processing

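The counts in Tun 45min against control (510 higher, 276 lower) stayed within 1.5 times under DESeq2's size factors, other read filters and all groups in 1 fit. The cause of the other shifts was not tested. The counts were 876 and 180 scaled by total reads, 896 and 607 with edgeR's exact test, 972 and 871 with DESeq2's Wald test, 1005 and 908 with a GC offset, 238 and 69 with a log2 fold change of at least 1, 2325 and 2267 with 2 libraries per group (chosen after seeing the data), and 55 to 1391 and 3 to 1108 with 1 library left out. With the replicate number as a block they were 21 and 0, and 300 and 208 with the GC offset as well. Deviations of same-numbered libraries correlated at −0.375, 0.269 and −0.403. Those of Tun 45min replicate 3 and control replicate 1, which stood apart along GC content, correlated at 0.442. With that shift present, the correlations cannot decide whether same-numbered libraries were paired. The labels give only a replicate number. Of 136 called named genes, 121 were not called under the block.

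In Tun 135min against Tun 45min (15 and 22) the counts were 0 and 0 with the replicate block, with or without the GC offset, 164 and 169 with the exact test, 328 and 294 with DESeq2's test, 40 and 65 with all groups, 133 and 128 with the GC offset, 14 lower with DESeq2's size factors, 37 lower by total reads, and 0 to 107 and 0 to 111 with 1 library left out. In HS 45min against Tun 45min (8 and 18) they were 0 and 0 with the block, with or without the GC offset, 21 and 95 by total reads, 456 and 298 with the exact test, 748 and 379 with DESeq2's test, 719 and 551 with all groups, 241 and 233 with the GC offset, and 0 to 3416 and 0 to 3671 with 1 library left out. In Tun 405min against Tun 45min (3110 and 3574) they were 1659 and 1769 with all groups, 637 and 1363 with a log2 fold change of at least 1, and 2349 to 3659 and 2678 to 3747 with 1 library left out. Scaling by total reads put the median log2 fold change of all genes at −0.132 (Tun 135min), −0.328 (HS 45min) and −0.213 (Tun 405min).

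The 14 log2 fold changes that changed sign all belonged to genes not called. Ier3 was 0.07823 by total reads, 0.04173 with the block and 0.009395 with the GC offset and block. With 2 libraries per group Eif2ak3 was −0.0448, Hsp90b1 −0.02023, Junb −0.03232 and Ubb −0.0779. With 1 library left out Ier3 ranged from −0.2679 to 0.2669, Mdm2 from −4.147e-06 to 0.1829, Sdf2l1 from −0.06993 to 0.2328, Eif2ak3 from −0.02689 to 0.09404 and Ubb from −0.07525 to 0.1741. Among the other values of named genes, 2389 kept their direction and side of the threshold, 823 lost the call and 41 gained one. Depth limits low genes, for which 3 reads stand at 0.0451 to 0.0747 CPM.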
